A study of Mus musculus with 9 samples.

Results

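Collagen genes were followed in the mRNA of extracellular vesicles (EVs) shed by mouse embryonic fibroblasts (MEFs). A gene was taken as a collagen gene when its symbol in the array annotation was Col, a number, the letter a and a number, and it was read through the probe with the highest mean signal over all arrays. This rule gave 41 collagen genes of the 36492 genes on the array, with 61 probes between them. EV RNA from PBS treated MEFs was hybridised to 5 arrays and EV RNA from control MEFs to 4 arrays, 1 sample an array. Nothing in the labels gives the strain, passage or age of the cells, and nothing says if electric pulses, with which the study loads its vesicles, were given together with PBS. Nothing says that the samples of a group came from separate cultures, so the spread between arrays may be partly technical. The arrays lay on 2 slides, and both groups were on each. Slide 1 carried the first 3 PBS-treated and the first 2 control replicates, and slide 2 carried the others.

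Collagens are the main structural proteins of the extracellular matrix, and their chains wind around each other in a helix that needs glycine at regular steps. Fibril-forming collagens such as types I, III and V give connective tissue its tensile strength, type IV builds the network of basement membranes, type VI forms beaded filaments around cells, and type VII forms the fibrils that anchor the skin epithelium. Fibroblasts are the classical source of type I collagen, which is built from alpha 1 chains encoded by Col1a1 and an alpha 2 chain encoded by Col1a2. A change of collagen mRNA in vesicle RNA can come from fewer vesicles that carry it or from less of it per vesicle. A change of its scaled level can also come from a shift of the other RNA to which the array is scaled. These cannot be told apart here.

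Each probe was 60 bases long, and the first 30 bases are shown for the collagen genes on which the results below turn. The places are those of the mouse mm9 build given in the array annotation. The probe of Col1a1 lay at chr11:94813115-94813174 on the plus strand, that of Col1a2 at chr6:4490619-4490678 on the plus strand, that of Col2a1 at chr15:97806071-97806130 on the minus strand, that of Col6a1 at chr10:76171538-76171597 on the minus strand and that of Col7a1 at chr9:108886861-108886920 on the plus strand. No genome annotation of that build was used here, so exon and UTR borders are not given.
Col1a1: tgaccaactgaacgtgaccaaaaaccaaaa
Col1a2: accaagaattccgtgtggaggttggccccg
Col2a1: gtcctacacaatggtgctattctgtgtcaa
Col6a1: ccacattccccgtaatctgatccaagccag
Col7a1: ctgtgataccatggtgctgatgggagggga

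A few probes carried the signature of the collagen helix in their own letters. Glycine codons start with GG, and glycine at regular steps of the helix puts a GG pair 9 bases after the one before it. A run of at least 4 such pairs was found in 4 of the 61 collagen probes (6.56%) and in 51 of all 55681 probes (0.092%). These 4 probes are shown whole, with the GG pairs of the run in capitals, as examples of probes that read helix-coding sequence. Probes with shorter runs, such as those of 3 pairs in Col13a1 and in a second probe of Col4a4, may read it too. The Col14a1 probe lay at chr15:55347733-55347792, the Col15a1 probe at chr4:47283786-47283845, the Col16a1 probe at chr4:129756457-129756516 and the Col25a1 probe at chr3:130270497-130270556, all on the plus strand.
Col14a1: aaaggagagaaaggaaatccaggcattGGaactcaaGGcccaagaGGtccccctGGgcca
Col15a1: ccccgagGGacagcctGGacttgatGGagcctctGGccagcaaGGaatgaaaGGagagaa
Col16a1: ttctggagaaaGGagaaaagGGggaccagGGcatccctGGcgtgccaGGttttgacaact
Col25a1: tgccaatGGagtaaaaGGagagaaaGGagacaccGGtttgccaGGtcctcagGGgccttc
The Col14a1, Col15a1 and Col16a1 helix probes were above background on none of the 9 arrays. The Col25a1 helix probe was above background on 2 PBS-treated arrays and 1 control array.

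The arrays differed in how much of the transcriptome they measured. Between 16492 and 19233 probes were well above background on the PBS-treated arrays, against 12584 to 15554 on the control arrays. The difference of 3953 probes had an exact permutation p = 0.00794, two-sided, the smallest that 5 against 4 arrays allow. Control replicates 3 and 4 stood apart, with correlations across genes of 0.60 to 0.65 with PBS-treated replicates 1 to 3, which lay on the other slide. Their correlations were 0.81 to 0.84 with control replicates 1 and 2. With PBS-treated replicates 4 and 5, on their own slide, they were 0.77 to 0.80. Differences without both control replicates 3 and 4 are therefore given below for Col1a2, Col3a1, Col4a4, Col4a6, Col6a2 and Col7a1. For the other tested collagen genes the log2 differences without both were -1.52 (Col1a1), -1.705 (Col2a1), -0.70 (Col5a1), -1.64 (Col6a1), 0.29 (Col12a1) and -0.18 (Col16a1). Chain ratios and the other gene lists were not refitted without both. The 75th percentile of signal, to which each array was scaled, was 1.29 higher on the log2 scale in PBS-treated than in control arrays relative to 8 spike-in probes. Of 12 fibroblast markers on the array, 10 were tested. In PBS-treated EVs 5 were higher and 3 lower (Fn1, Pdgfra and Fbln2), where 31.5% of all genes were higher and 20.7% lower. Lum and Twist1, among the 5, were well above background on 4 and 5 PBS-treated arrays but on 0 and 1 control arrays. They were tested mainly through the group where they were high. Thy1 was above background on no array. The summed level of the fibroblast list was 25.2 to 27.0 times the scaling signal in PBS-treated arrays and 11.9 to 19.6 times in control arrays. In PBS-treated arrays the highest mean log2 levels of this list were those of S100a4 (3.72), Vim (2.41) and Dcn (2.38). Markers of other cell types also differed. The endothelial marker Kdr (-1.43) and the myeloid markers Itgam (-1.30) and Csf1r (-2.70) were called lower in PBS-treated EVs. Fabp4, a marker of fat cells, was called higher (4.56). Pecam1, an endothelial marker, was also lower, but its probe was well above background on 1 PBS-treated array and on 4 control arrays. It could be tested mainly through the group where it was high, so no size is given. The summed level was 0.105 to 0.139 in PBS-treated and 0.244 to 0.424 in control arrays for 5 endothelial markers, 0.789 to 1.73 and 2.06 to 3.00 for 6 macrophage and leukocyte markers, and 0.674 to 0.736 and 0.0431 to 0.0594 for 3 fat cell markers. Cdh5, Emcn and Tek, Adgre1, Cd68 and Lyz2, and Adipoq and Plin1 were above background on no array. The part of depth, of the control arrays of slide 2 and of these markers in the collagen results was not tested beyond the values given beside them.

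Many collagen genes were not measured above background in these vesicles. Counting any probe of a gene, 20 of the 41 collagen genes and 19691 of all 36492 genes were above background on at least 1 array. Read through the chosen probe, 6 of the 41 collagen genes were well above background on each of the 9 arrays (Col1a1, Col1a2, Col3a1, Col6a1, Col7a1 and Col16a1), 22 on none and 7 on 1 to 3 arrays. Between 11 and 12 collagen genes were above background on each PBS-treated array, against 8 to 13 on each control array. A gene was tested when its probe was well above background on at least 4 arrays, which left 12 collagen genes tested and 29 untested among 14319 genes tested in all. The 22 collagen genes whose chosen probe was above background on no array were Col4a3, Col4a5, Col5a2, Col5a3, Col6a4, Col6a6, Col8a1, Col8a2, Col9a1, Col9a3, Col10a1, Col11a1, Col11a2, Col13a1, Col14a1, Col15a1, Col18a1, Col19a1, Col22a1, Col24a1, Col27a1 and Col28a1. They include the type V alpha 2 chain, the partner of Col5a1, and both type VIII and type XI chains on the array. A second probe of Col10a1 was above background on 1 PBS-treated array. That a probe was not well above background does not show that its mRNA was absent.

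**Figure D1:**
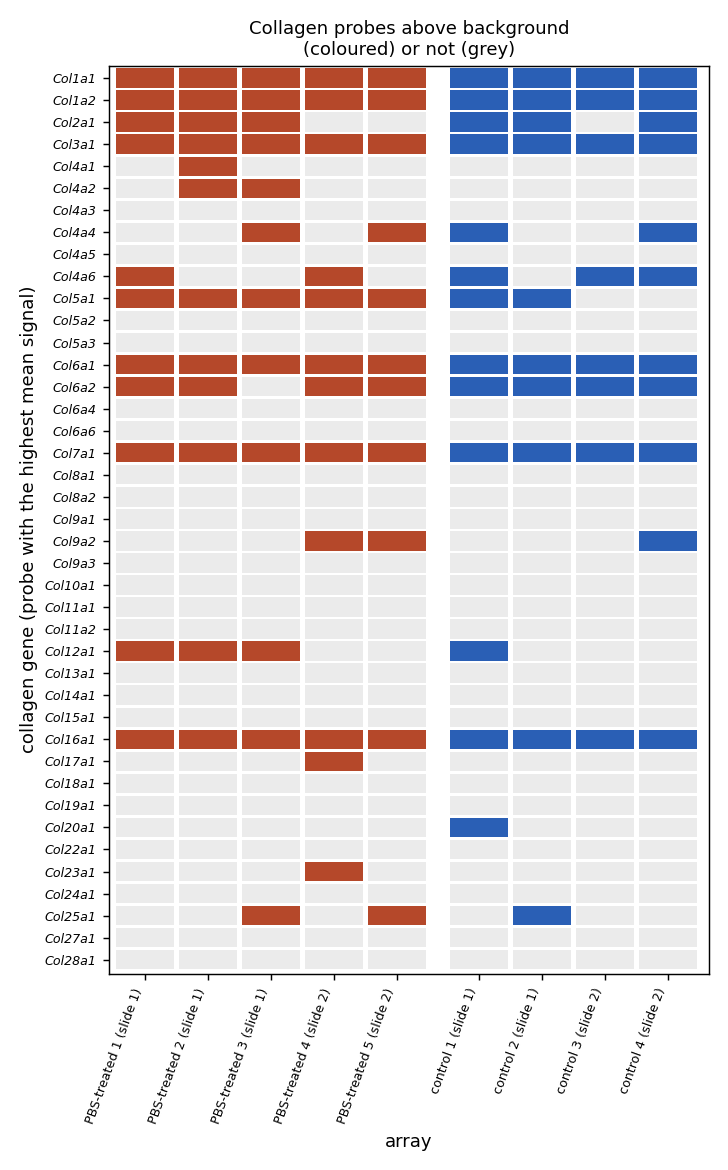
Whether the probe of each of the 41 collagen genes (rows) was well above background (coloured, red for PBS-treated and blue for control) or not (grey) on each of the 9 arrays (columns). The 6 full rows are Col1a1, Col1a2, Col3a1, Col6a1, Col7a1 and Col16a1, and 22 rows are grey throughout.

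In the comparison of PBS-treated with control EVs, 6 of the 12 tested collagen genes fell and 0 rose. The 6 were Col1a1, Col2a1, Col5a1, Col6a1, Col6a2 and Col7a1, at a limma adjusted p under 0.05 with Benjamini-Hochberg adjustment over all genes. Without adjustment, 0 collagen genes were higher and the same 6 were lower at p under 0.05. Across all 14319 genes, 52.2% were called in either direction, 31.5% higher and 20.7% lower, so the share of collagen genes called was near the background of either direction. With slide as a block in the fit, 69.7% of all genes were called and 34.3% were lower, and 7 collagen genes were lower and 0 higher, Col3a1 being the added one. The median log2 difference of the tested collagen genes was -1.26, against -0.02 over all genes tested. In 5 of the 12 genes every PBS-treated array lay below every control array, against 17.6% of all genes, and in 0 genes the reverse held, while 47% of all genes were separated in 1 direction or the other. Without control replicates 3 and 4, a setting chosen after seeing the data, 6 genes were again lower and 0 higher, with Col1a2 called in place of Col6a2, and the median was -0.57. Of all genes, 49.8% were then called and 20.7% were lower. These directions are relative to the percentile scaling. When arrays were scaled on the spike-in probes instead, the median over all genes moved to 1.27, and 5 collagen genes were called higher (Col1a2, Col3a1, Col5a1, Col12a1 and Col16a1) and 1 lower (Col2a1). Of all 14319 genes, 8964 were then called higher and 710 lower. The gap between the collagen median and the median of all genes was -1.24 under both scalings, as it must be, since they differ by 1 constant per array. It was -0.66 after normexp background correction with percentile scaling and -0.43 after normexp with quantile normalization. Under percentile scaling the gap was -0.83 with probes above background on all 9 arrays. It was -0.69 with probes above background on at least 1 array and -0.20 with no filter on dim probes. Of all called genes, 60.4% were higher under percentile scaling, 92.7% under spike-in scaling and 28.8% after normexp with percentile scaling.

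**Figure D2:**
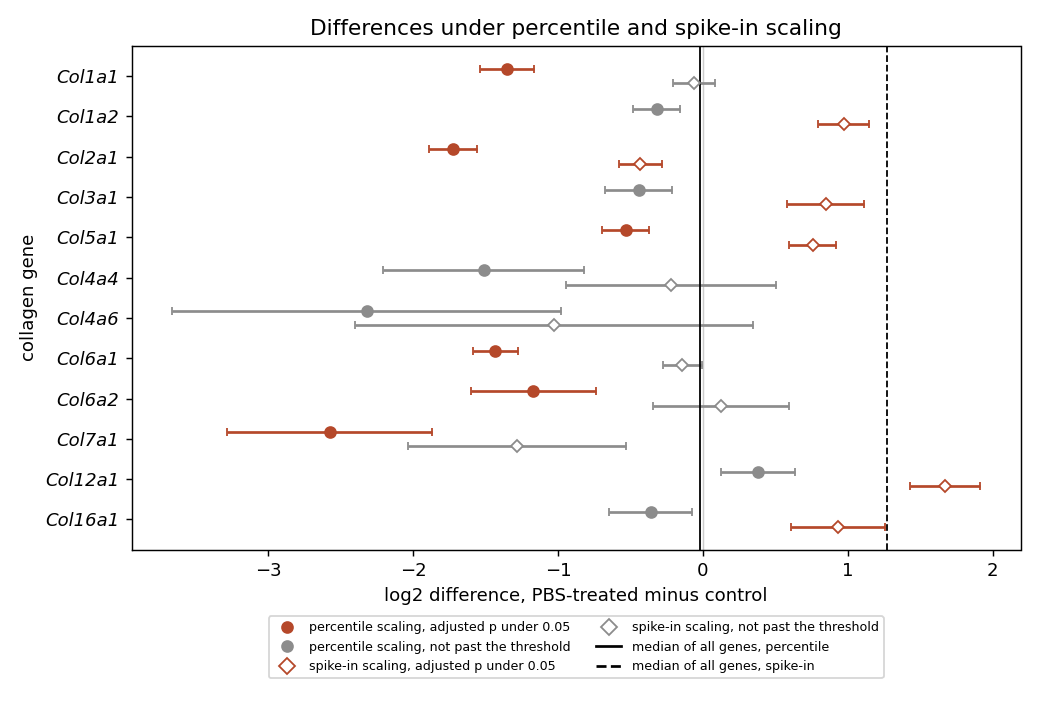
Fitted log2 difference (PBS-treated minus control, horizontal axis) with its standard error for each of the 12 tested collagen genes, under percentile scaling (circles) and spike-in scaling (open diamonds), red where the adjusted p was under 0.05. Vertical lines mark the median of all genes under each scaling, and 11 of 12 collagen genes lie left of it, Col12a1 being the exception. The scalings differ by 1 constant per array, so this count is the same for both.

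Among the fibril-forming collagens, Col1a1 fell while Col1a2 and Col3a1 did not pass the test. Col1a1 encodes the alpha 1 chain of type I collagen. Its scaled level, the log2 signal minus the 75th percentile of the array, was -0.96, -0.86, -1.24, -1.50 and -1.50 in the PBS-treated arrays and 0.35, 0.27, -0.09 and 0.03 in the control arrays. All 5 PBS-treated values lay below all 4 control values. Col1a1 fell by 1.35 ± 0.18 on the log2 scale (SE, n = 5 and 4, limma adjusted p = 0.000366), a 2.55-fold lower signal, with differences of -1.33 within slide 1 and -1.47 within slide 2. Under spike-in scaling the Col1a1 difference was -0.06 with an adjusted p of 0.755. With the percentile taken over all probes it was -0.95 with an adjusted p of 0.143, so its call depends on the scaling.

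Col1a2, the alpha 2 chain of the same collagen, had scaled levels of -2.57, -2.33, -2.22, -2.19 and -2.01 in the PBS-treated arrays and -1.79, -1.69, -2.17 and -2.13 in the control arrays. The groups overlapped, and the difference was unequal between the slides. The PBS-treated arrays of slide 1 were lower, and its control arrays higher, than those of slide 2. On slide 2 the PBS-treated arrays lay beside their controls. The log2 difference was -0.32 ± 0.16 (limma adjusted p = 0.129), with -0.63 within slide 1 and 0.05 within slide 2. Without control replicates 3 and 4 the Col1a2 difference was -0.52 with an adjusted p of 0.0356.

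Col3a1, the chain of type III collagen that often shares fibrils with type I, had scaled levels of -3.95, -3.76, -3.95, -3.56 and -3.09 in the PBS-treated arrays and -3.50, -3.50, -3.00 and -2.86 in the control arrays. Within each slide every PBS-treated array lay below its controls, but across slides the groups overlapped. The log2 difference was -0.44 ± 0.23 (limma adjusted p = 0.136), -0.39 with an adjusted p of 0.0211 when slide was a block in the fit, and -0.59 with an adjusted p of 0.0417 without PBS-treated replicate 5. Without control replicates 3 and 4 the Col3a1 difference was -0.16 with an adjusted p of 0.660.

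Col5a1, whose type V chain starts and narrows collagen fibrils, had scaled levels of -4.64, -4.30, -4.24, -4.70 and -4.27 in the PBS-treated arrays and -3.70, -3.76, -3.94 and -4.18 in the control arrays. The groups did not overlap, but the gap between the highest PBS-treated and the lowest control value was narrow, and on control replicates 3 and 4 the probe was not well above background. Col5a1 fell by 0.53 ± 0.16 on the log2 scale (limma adjusted p = 0.0213). Leaving out PBS-treated replicate 1, control replicate 1 or control replicate 2 ended this call, with adjusted p of 0.0529, 0.0573 and 0.0538. So did quantile normalization (-0.26, adjusted p = 0.572), normexp with quantile normalization (-0.16, adjusted p = 0.525), the deposited log2 table (-0.03, adjusted p = 0.925) and the percentile over all probes (-0.13, adjusted p = 0.838), and spike-in scaling turned the sign (0.76).

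Col2a1 encodes the main fibrillar collagen of cartilage. Its scaled levels were -5.62, -5.33, -5.69, -5.89 and -5.98 in the PBS-treated arrays and -3.95, -4.05, -4.20 and -3.73 in the control arrays. The groups were far apart relative to their spread, although the probe was well above background on only 3 PBS-treated and 3 control arrays. Col2a1 fell by 1.72 ± 0.17 on the log2 scale, 3.30-fold (limma adjusted p = 5.91e-05), with differences of -1.55 within slide 1 and -1.97 within slide 2. It kept its direction and its call in all 27 alternatives run for it, the spike-in scaling included (-0.43, adjusted p = 0.0294). Of 7 cartilage markers fixed as a list, 3 were tested. Acan was lower in PBS-treated EVs (-1.61, adjusted p = 0.0218), while Sox5 (-0.47, adjusted p = 0.0812) and Sox9 (0.88, adjusted p = 0.0655) did not pass, and Comp, Hapln1, Matn1 and Matn3 were above background on no array. The summed level of the cartilage list was 27.4 to 40.1 times the scaling signal in PBS-treated arrays and 35.7 to 63.4 times in control arrays, nearly all of it from the Sox5 probe, whose scaled log2 level was 4.77 to 5.32 in PBS-treated and 5.15 to 5.98 in control arrays.

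**Figure D3:**
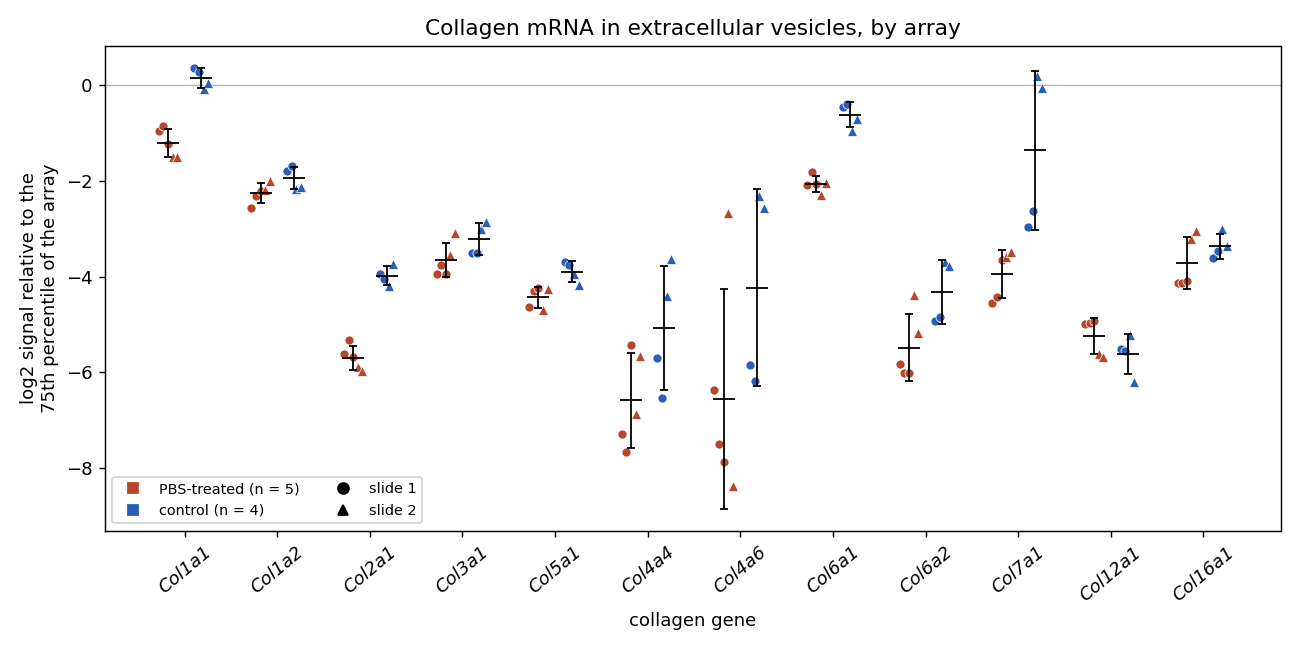
Scaled log2 signal (vertical axis, relative to the 75th percentile of each array) of the 12 tested collagen genes, with PBS-treated arrays in red and control arrays in blue, circles for slide 1 and triangles for slide 2, and black bars for the mean and SD (n = 5 and 4). Col1a1, Col2a1 and Col6a1 separate the groups on both slides, while Col7a1 is highest in the control arrays of slide 2 and Col4a6 splits the arrays of both groups.

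The ratio of Col1a1 to Col1a2 within an array does not depend on the scaling of the array, and it shifted between the groups. The log2 ratio of the probe signals was 1.61, 1.47, 0.99, 0.69 and 0.51 in the PBS-treated arrays and 2.14, 1.96, 2.07 and 2.16 in the control arrays. The control ratios lay close together, and every PBS-treated ratio lay below them. PBS-treated EVs averaged 1.05 ± 0.48 (SD, n = 5) and control EVs 2.09 ± 0.09 (SD, n = 4), and the ratio differed by -1.03 with an exact permutation p = 0.0159, two-sided, and 0.0476 after adjustment over the 3 chain pairs that could be measured. The difference was -0.70 within slide 1 and -1.52 within slide 2. With any 1 array left out it was -1.17 to -0.90, and the unadjusted exact p was at most 0.0357 while the adjusted p was over 0.05. Such a ratio shows unequal change of the probe signals, and it does not give the ratio of molecules.

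The ratio of Col3a1 to Col1a1 differed by 0.91 on the log2 scale, with means of -2.45 ± 0.60 (SD, n = 5) in PBS-treated EVs and -3.36 ± 0.53 (SD, n = 4) in control EVs. The groups overlapped, and the exact permutation p was 0.0714, adjusted 0.107. The ratio of Col6a1 to Col6a2 was 3.42 ± 0.84 (SD, n = 5) in PBS-treated EVs and 3.69 ± 0.92 (SD, n = 4) in control EVs, with an exact permutation p = 0.667. For this pair the slide 2 arrays of both groups were lower than those of slide 1.

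**Figure D4:**
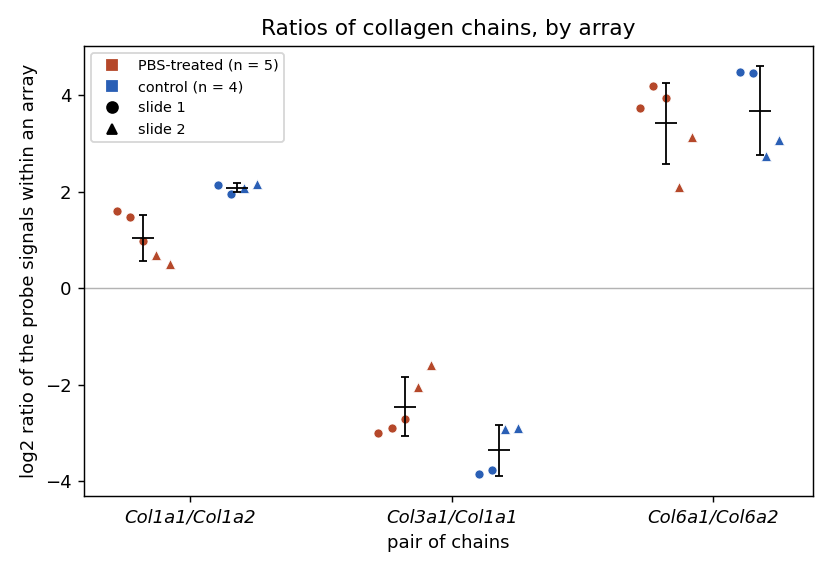
Log2 ratio of 2 probe signals within an array (vertical axis) for 3 pairs of collagen chains, with PBS-treated arrays in red and control arrays in blue, circles for slide 1 and triangles for slide 2, and black bars for the mean and SD. The 4 control arrays hold the Col1a1/Col1a2 ratio between 1.96 and 2.16, above all 5 PBS-treated arrays.

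Of the beaded filament chains of type VI collagen, Col6a1 and Col6a2 were lower in PBS-treated EVs. Col6a1, the alpha 1 chain, had scaled levels of -2.09, -1.82, -2.06, -2.29 and -2.05 in the PBS-treated arrays and -0.46, -0.39, -0.96 and -0.71 in the control arrays. The groups were separated on both slides. Col6a1 fell by 1.43 ± 0.16 on the log2 scale, 2.70-fold (limma adjusted p = 0.000114), and like Col1a1 it lost its call under spike-in scaling (-0.14, adjusted p = 0.408).

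Col6a2, the alpha 2 chain, had scaled levels of -5.83, -6.01, -6.01, -4.39 and -5.19 in the PBS-treated arrays and -4.93, -4.85, -3.70 and -3.78 in the control arrays. Within each slide every PBS-treated array was below its controls, but the slide 2 arrays of both groups were higher, so the groups overlapped. Col6a2 fell by 1.17 ± 0.43 on the log2 scale (limma adjusted p = 0.0475), close to the threshold, and 16 of 27 alternatives ended the call, 1 of them, the spike-in scaling, with the sign turned (0.12). It was lost when PBS-treated replicate 1, 2, 3 or 5 or control replicate 3 or 4 was left out, and without both of these control arrays the difference was -0.59 with an adjusted p of 0.366. With slide as a block it was -1.05 with an adjusted p of 0.000572. No type VI chain other than Col6a1 and Col6a2 was tested. Col6a4 and Col6a6 were above background on no array. A probe described as the alpha 3 chain, outside the collagen rule, was well above background on 3 PBS-treated and 0 control arrays. It was too dim for the test, and its log2 signal was 0.68 higher in PBS-treated arrays.

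Col7a1 encodes the chain of anchoring fibrils, a collagen that keratinocytes and fibroblasts both make. Its scaled levels were -4.56, -4.43, -3.66, -3.59 and -3.48 in the PBS-treated arrays and -2.96, -2.64, 0.18 and -0.07 in the control arrays. All PBS-treated arrays lay below all controls, and the control arrays of slide 2 were much higher than those of slide 1. Col7a1 fell by 2.57 ± 0.71 on the log2 scale, 5.95-fold (limma adjusted p = 0.0144), with differences of -1.42 within slide 1 and -3.59 within slide 2. Without control replicates 3 and 4 the difference was -1.14 with an adjusted p of 0.0369, and under spike-in scaling it was -1.28 with an adjusted p of 0.167. Of 5 epithelial markers, Krt19 was tested and was lower in PBS-treated EVs (-0.93, adjusted p = 0.0223), Cdh1, Epcam and Krt18 were above background on no array, and the summed level of the list was 0.026 to 0.053 times the scaling signal in PBS-treated arrays and 0.059 to 0.114 times in control arrays.

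The basement membrane chains were scarce and uneven. Col4a1 and Col4a2, which encode the chains of the common type IV network, were above background on 1 and 2 PBS-treated arrays and on 0 control arrays, and were not tested. Col4a4, a chain of specialised basement membranes such as that of the kidney glomerulus, was above background on 2 arrays of each group. Its scaled levels were -7.29, -7.66, -5.44, -6.86 and -5.67 in the PBS-treated arrays and -5.70, -6.53, -4.42 and -3.64 in the control arrays, and the groups overlapped. The log2 difference was -1.51 ± 0.69 (limma adjusted p = 0.0996), with an adjusted p of 0.0381 without control replicate 2. It was -0.47 without control replicates 3 and 4. Col4a6 had scaled levels of -6.36, -7.49, -7.87, -2.67 and -8.37 in the PBS-treated arrays and -5.85, -6.17, -2.33 and -2.57 in the control arrays. PBS-treated replicate 4 and control replicates 3 and 4, which share slide 2, were high and the other 6 arrays were low. The Col4a6 difference of -2.32 ± 1.34 did not pass the test (limma adjusted p = 0.179). Without PBS-treated replicate 4 it was -3.29 with an adjusted p of 0.0278, without control replicates 3 and 4 it was -0.54, and its second probe was above background on no array.

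Among the collagens that associate with fibrils without forming them, Col12a1 and Col16a1 were tested and neither passed. Col12a1 gave 0.38 ± 0.26 (limma adjusted p = 0.240) and was the only tested collagen gene with a positive difference in this fit. It was called higher in 4 of 27 alternatives. These were spike-in scaling (1.67), slide 1 alone (0.57), array weights (0.51) and a replicate block (0.49). After normexp with percentile scaling its sign turned (-0.44, adjusted p = 0.0851). Its probe was above background on 3 PBS-treated arrays and 1 control array. Col16a1 gave -0.36 ± 0.28 (limma adjusted p = 0.313), and its PBS-treated arrays of slide 1 were low, between -4.14 and -4.08, against -3.21 and -3.06 for those of slide 2, while its control arrays lay between -3.62 and -3.01.

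The probes of Col16a1 did not give the same picture. The probe used above lay at chr4:129776333-129776392 on the plus strand and was well above background on all 9 arrays. A second probe, at chr4:129776460-129776519 and 127 bases further along the transcript, was above background on none, nor was the helix probe shown above. The first 30 bases of the neighbouring probes are shown because they read the same transcript record.
Col16a1 probe above background: ttgaaactcccgcccacactgagatgaagg
Col16a1 probe 127 bases on: ttttttaacaataaagaaaactatttgtaa
Over all collagen genes, 14 had several probes. Of their 20 further probes, 17 were above background on no array and 0 reached the 4 arrays needed for a test, so no collagen result here has a second probe to set beside it.

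By their chosen probes, the remaining collagen genes above background on some arrays were Col9a2, Col17a1, Col20a1, Col23a1 and Col25a1. Col9a2, a cartilage chain, was above background on 2 PBS-treated arrays and 1 control array, all on slide 2. Col17a1, a transmembrane collagen of epithelial junctions, was above background in PBS-treated replicate 4 only. Col23a1, another transmembrane collagen, was also above background in that array alone, where its chosen probe stood at -3.57 and a second probe at -4.97, against -9.09 to -5.84 and -9.52 to -6.46 on the other arrays. Col20a1 was above background in control replicate 1 only. The 29 untested collagen genes had a median log2 difference of -1.31, close to the -1.34 of the 30186 probes that were above background on no array, so signals at background level were themselves lower in PBS-treated arrays after scaling.

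The genes that build collagen were mostly lower as well. Of 34 collagen-making genes on the array, 24 were tested, 2 rose, 14 fell and 8 did not pass, where 52.2% of all genes were called and 20.7% were lower, with a median log2 difference of -0.75 against -0.02 over all genes. Under spike-in scaling 14 of them were higher and 0 lower, where 8964 of all 14319 genes were higher and 710 lower. These directions too are therefore relative to the percentile scaling. Plod3, which hydroxylates lysine in collagen, had scaled levels of -3.12, -3.06, -3.22, -2.44 and -2.62 in the PBS-treated arrays and -1.44, -1.42, -1.44 and -1.39 in the control arrays. The groups were far apart, with the controls nearly level, and Plod3 fell by 1.47 ± 0.18 on the log2 scale (limma adjusted p = 0.000218). P3h4, a partner of the collagen hydroxylases, fell by 0.65 ± 0.10. Pcolce, which speeds removal of the procollagen C-propeptide, fell by 1.07 ± 0.13, and Loxl4, a lysyl oxidase that cross-links collagen, fell by 1.76 ± 0.21.

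Fkbp14, a prolyl isomerase of the endoplasmic reticulum that helps collagen fold, moved the other way. Its scaled levels were -2.69, -2.72, -2.63, -2.90 and -3.01 in the PBS-treated arrays and -4.37, -4.15, -4.30 and -4.89 in the control arrays, a rise of 1.64 ± 0.17 (limma adjusted p = 9.25e-05). Lox, the founding lysyl oxidase, was the other gene of the list that rose, by 0.91 ± 0.18. Serpinh1, the collagen chaperone HSP47, gave -0.15 ± 0.24 and did not pass the test.

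**Figure D5:**
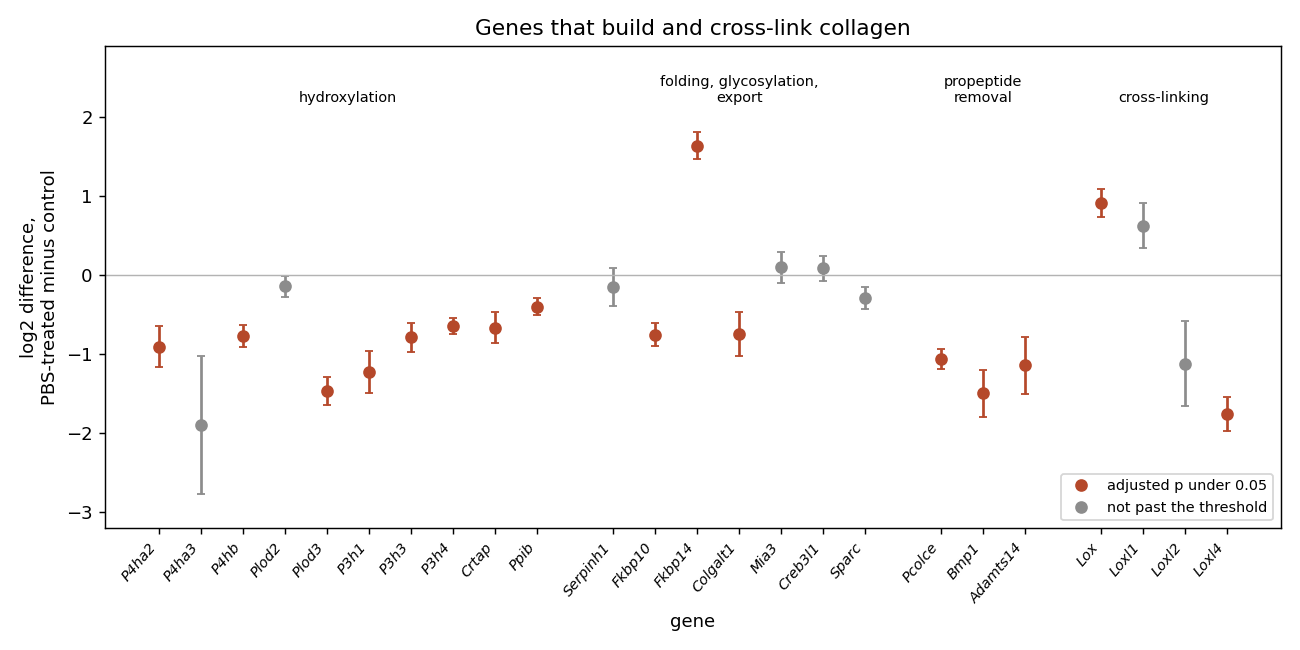
Fitted log2 difference (PBS-treated minus control, vertical axis, percentile scaling) with its standard error for the 24 tested collagen-making genes, grouped by role, red where the adjusted p was under 0.05. All 11 called genes of hydroxylation and propeptide removal lie below 0, while Fkbp14 and Lox lie above it.

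Collagen receptors and collagen-degrading enzymes moved in both directions. Of 11 receptors on the array 6 were tested, of which 1 rose and 3 fell, and of 9 degrading enzymes 3 were tested, of which 2 rose and 1 fell, so 7 of these 9 were called where 52.2% of all genes were. The 7 include Itga10 and Mmp13, which passed the filter mainly or only through the group where they were high. Under spike-in scaling 4 of the 9 were higher and 1 lower, where 8964 of all 14319 genes were higher and 710 lower. Itga10, a collagen-binding integrin chain of cartilage, had scaled levels of -6.81, -6.42, -5.98, -7.38 and -7.39 in the PBS-treated arrays and -1.84, -1.97, -2.57 and -2.41 in the control arrays. It was among the 3 that fell, but its probe was well above background on 1 PBS-treated array and on all 4 control arrays. It therefore passed the filter mainly through the group where it was high, and no size of its change is given. Ddr2, a receptor kinase activated by fibrillar collagen, fell by 1.64 ± 0.15, and Itgb1, the shared beta chain of the collagen integrins, fell by 0.91 ± 0.18. Itga1, an integrin alpha chain that binds collagen, rose by 2.11 ± 0.30.

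Mmp13, a collagenase, was well above background on all 5 PBS-treated arrays, at -2.86, -3.05, -3.11, -3.25 and -2.74, and on none of the 4 control arrays. Its signal was at least 5.97-fold higher in PBS-treated EVs, with each control array set to its dimmest probe that was well above background where Mmp13 itself was dimmer (limma adjusted p = 3.19e-05). It passed the filter only through the PBS-treated arrays, so this p rests on control values at background. Mmp2, a gelatinase, rose by 0.96 ± 0.21, while Mmp14, a membrane-bound collagenase, fell by 0.87 ± 0.21. Ctsk, Fap, Mmp1a, Mmp1b, Mmp8 and Mmp9 were above background on no array.

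Of 22 regulators of collagen genes on the array, 18 were tested, 7 rose and 5 fell, where 31.5% of all genes were higher and 20.7% lower. Twist1, among the 7, passed the filter mainly through the PBS-treated arrays, where it was high. Cebpb, a transcription factor induced by stress and inflammation, had scaled levels of 1.80, 1.69, 1.56, 1.73 and 1.45 in the PBS-treated arrays and -1.57, -1.73, -1.84 and -2.10 in the control arrays, a rise of 3.46 ± 0.14 (limma adjusted p = 1.24e-06). Among the called TGF-beta genes, the ligand Tgfb3 fell by 1.64 ± 0.16, the signal carrier Smad3 fell by 1.71 ± 0.21 and Ccn2, a matrix protein gene and TGF-beta target, fell by 1.85 ± 0.22. Tgfb2 (-0.95) and the receptor gene Tgfbr1 (-1.26) were lower too, while the receptor gene Tgfbr2 rose by 0.93 ± 0.14. Under spike-in scaling 13 regulators were higher and 1 lower, where 8964 of all 14319 genes were higher and 710 lower. After normexp with percentile scaling 3 were higher and 7 lower (median -0.24, against 0.51), where 1888 of all genes were higher and 4674 lower.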

How the data were processed

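EV total RNA was isolated with a miRNeasy Serum/Plasma kit, labelled with Cy3 and hybridised to 1-colour Agilent mouse arrays, per the labels. The authors deposited scanner output made with Agilent Feature Extraction 10.7.3.1, in which the processed signal is a background-subtracted intensity, and a log2 value table from an in-house pipeline. The deposited log2 values ranked the probes of each array as its mean signal did (Spearman 1), and their centring (median 5.97 in each column) is not stated in any source used here. The methods name a two-tailed Student test or an analysis of variance for the study without tying either to the arrays, and comparison columns of the study were not used.

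Control and non-uniform spots were left out, spots of a probe were averaged, and log2 intensity was scaled to the 75th percentile of the 8422 probes that passed the scanner's background call on each of the 9 arrays. Probes well above background on at least 4 arrays (17765) were kept, with 1 probe per gene, and PBS-treated minus control was fitted with limma 3.58.1 in R 4.3.3 (lmFit, eBayes, two-sided, Benjamini-Hochberg, threshold 0.05). The fit was tested on simulated data. Ratios and array counts were compared with exact permutation tests. Values per array are given for the type I, III, V and VI chains that passed the filter and for other collagen genes called, and up to 5 called genes with the smallest p from each other list. Lox, Serpinh1, Tgfb2, Tgfbr1, Col4a4, Col4a6, the cell type markers named and the probes of Col16a1 and Col23a1 were singled out after their values were seen. Collagen genes and lists were chosen with earlier results of these data known. Replicate numbers are shared by the groups with no label that says what they mark, so the main fit has no replicate block, which was run as an alternative. The number of arrays limits the precision. Alternatives covered scaling, background correction, filters, slide, tests and arrays left out.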

Additional observations from a re-analysis of the deposited data

Results flagged for a closer look

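A probe outside the collagen rule, named by a transcript identifier and described as collagen type VI alpha 3, was higher in PBS-treated EVs. Its scaled levels were -5.88, -5.73, -5.80, -5.67 and -5.91 in the PBS-treated arrays and -6.77, -7.24, -5.93 and -5.99 in the control arrays. The PBS-treated arrays lay above all control arrays, by 0.68 on average on the log2 scale, and the probe was well above background on 3 PBS-treated and 0 control arrays. It was too dim for the test, and its gap on slide 2 was narrow. In 34 group-wise checks for a single distant array (the 12 tested collagen genes, 3 chain ratios and 2 counts of probes, in both groups), 0 arrays stood out, where chance gives about 1 in 20.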

How the results depend on the processing

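Of the collagen genes, 6 were called (0 higher, 6 lower, median -1.26), where 52.2% of all genes were called. With the 75th percentile over all probes 2 were called (Col2a1 and Col7a1), all lower, with a median of -0.86, where 34.1% of all genes were called. Spike-in scaling gave 5 higher and 1 lower and a median of 0.0305, where 8964 of all 14319 genes were higher and 710 lower. It turned the sign of Col16a1 (0.93), Col1a2 (0.97), Col3a1 (0.85), Col5a1 (0.76) and Col6a2 (0.12). The median was -0.87 after quantile normalization, -0.33 after normexp with quantile normalization, -0.33 in the deposited log2 table, -0.87 in slide 1 alone and -0.57 without both control arrays of slide 2, a setting chosen after seeing the data. With probes above background on all 9 arrays 3 of 6 were called, all lower, where 62.5% of all genes were called. Array weights gave 11 calls (1 higher, 10 lower), where 70.6% of all genes were called. Slide 1 alone gave 10 calls (1 higher), where 62.2% of all genes were called. Leaving out 1 array gave 4 to 7 calls, where 46.5% to 51.5% of all genes were called. The cause of these shifts was not tested, apart from the smaller number of genes under the stricter filter.

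The Col1a1/Col1a2 ratio difference was -0.70 in slide 1 alone, -1.52 in slide 2 alone, -1.08 after normexp (adjusted p = 0.0714) and -1.17 to -0.90 with 1 array left out. It was negative in each, with adjusted p over 0.05, and all but the normexp setting used fewer arrays. Of 24 collagen-making genes 16 were called, against 5 with the percentile over all probes, 10 after normexp with quantile normalization and 10 in the deposited log2 table. Of 9 receptors and degrading enzymes 7 were called, against 4 with the percentile over all probes. Of 18 regulators 12 were called, against 6 with the percentile over all probes, 6 after normexp with quantile normalization and 7 in the deposited log2 table. Of all genes 52.2% were called, against 34.1%, 39.4% and 39.3% under those 3 settings.

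Same-numbered arrays deviated together for numbers 1, 2 and 4 (correlations 0.70, 0.73 and 0.74), which share a slide, and not for number 3 (-0.54), which does not, so the numbers were not taken to pair the arrays. With a replicate block 9 collagen genes were called, 1 higher and 8 lower (median -1.26), where 52.0% of all genes were called. Low signal limited all untested collagen genes.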

Other observations

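Some probes described as collagens carry another name on the array. Both probes of predicted gene Gm7455, which RefSeq lists as Col6a5, and the probe of Emid2, which RefSeq lists as Col26a1, were above background on no array. Probes described as type XII alpha 1 and type XVI alpha 1 under transcript identifiers were above background on no array. Probes described so for type XIX alpha 1 and type VI alpha 2 were above background on 2 arrays and 1 array.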
